A study of Mus musculus with 18 samples.

Results

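The 44 genes described here encode proteins of the lysosome, of autophagy and of the nutrient-sensing GTPases that sit on the lysosome, and they were chosen by name. All 44 of 44 symbols were found among the 15137 symbols of the deposited table. Of these, 43 passed a filter on low values (a linear value of at least 10 in at least 3 of 18 libraries) and were tested among 10877 genes. By role the list holds 2 transcription factors of lysosomal genes, 5 genes of the Rag GTPases and folliculin complex, 7 lysosomal membrane proteins and 8 proteases, 7 of them cathepsins. It also holds 8 glycosidases and lipases, 3 carriers and cofactors of the lysosomal lumen, 5 genes of the Atg8 family with a cargo receptor, and 6 genes of autophagy initiation and conjugation.

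Lysosomes break down proteins, lipids, glycans and nucleic acids delivered by endocytosis and by autophagy, the pathway that wraps cytoplasm in a double membrane and fuses it with the lysosome. Amino acids are sensed on the lysosomal surface by the Rag GTPases, which bring the kinase complex mTORC1 there when nutrients are present. The transcription factors Tfeb and Tfe3 are kept in the cytoplasm by mTORC1 and raise many lysosomal and autophagy genes when they enter the nucleus, and quiescent T cells depend on autophagy for their survival.

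RNA sequencing was used on naive CD4+ T cells sorted from mouse spleen by surface markers, among them CD3+, CD4+, CD25- and CD44-. The mice were on the C57BL/6J background and were either controls or carried a conditional knockout of Creld1 (cKO) driven by CD4-Cre, a transgene that is active from the CD4+ CD8+ thymocyte stage and therefore deletes in all descendants of that stage. The control animals are labelled only as controls, without word on Cre or floxed alleles. Cells of each genotype were taken fresh, after 8 h of culture without stimulation, or after 8 h with anti-CD3 and anti-CD28 antibodies at 1 µg/ml. Both cultures used IMDM medium with fetal calf serum, so unstimulated and stimulated cells shared the medium. Each of the 6 groups had 3 libraries, and the labels give all 3 libraries of a group the same mouse number. The p-values below rest on the variation among such libraries, part or all of which may be technical.

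A short palindrome, CACGTG, is the core of the element that Tfeb and Tfe3 bind in lysosomal genes. The RefSeq promoter windows (build GRCm38.p6, 250 bases before to 50 after the annotated start) matched 41 of the 44 members, and CACGTG, read on both strands, was present in 12 of those 41 (29.3%). The same 6 letters were present in 8.09% of all 27025 genes with a window and in 10.7% of the 11616 such genes in the deposited table. The longer form TCACGTGA, which contains CACGTG, was in the windows of 4 members (9.76%), against 1.89% of the genes in the table. The 12 members with CACGTG were Lamp1, Ctsa, Ctsd, Ctsl, Gla, Glb1, Gaa, Mcoln1, Fnip1, Rragc, Atg5 and Atg7. The 250 bases before the start are printed below for 6 of them, chosen because they include members that rose, fell or did not pass the test in the results that follow. Each is written 5′ to 3′ on the gene's strand, and capitals mark CACGTG with an adjoining T before or A after it.

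Lamp1, chr8:13158911-13159160, plus strand: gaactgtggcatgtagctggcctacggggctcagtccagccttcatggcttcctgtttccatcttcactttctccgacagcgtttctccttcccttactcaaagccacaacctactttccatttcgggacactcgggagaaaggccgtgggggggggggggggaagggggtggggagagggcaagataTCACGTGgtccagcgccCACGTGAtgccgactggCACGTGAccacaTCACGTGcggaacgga
Mcoln1, chr8:3500269-3500518, plus strand: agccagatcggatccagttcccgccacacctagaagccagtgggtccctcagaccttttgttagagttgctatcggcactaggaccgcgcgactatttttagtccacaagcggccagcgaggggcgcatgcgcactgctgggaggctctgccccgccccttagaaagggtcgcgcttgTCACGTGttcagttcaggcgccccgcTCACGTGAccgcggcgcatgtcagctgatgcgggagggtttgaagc
Ctsd, chr7:142387828-142388077, minus strand: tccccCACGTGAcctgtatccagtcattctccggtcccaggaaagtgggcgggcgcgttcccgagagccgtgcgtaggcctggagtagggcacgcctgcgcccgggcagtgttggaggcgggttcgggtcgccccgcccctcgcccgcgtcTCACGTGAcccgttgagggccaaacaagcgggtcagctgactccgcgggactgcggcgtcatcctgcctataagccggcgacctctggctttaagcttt
Gla, chrX:134601006-134601255, minus strand: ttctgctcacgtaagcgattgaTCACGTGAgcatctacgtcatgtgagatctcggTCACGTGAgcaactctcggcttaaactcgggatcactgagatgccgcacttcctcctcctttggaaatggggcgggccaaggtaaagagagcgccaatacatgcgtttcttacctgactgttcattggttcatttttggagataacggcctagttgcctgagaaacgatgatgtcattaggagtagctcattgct
Rragc, chr4:123917183-123917432, plus strand: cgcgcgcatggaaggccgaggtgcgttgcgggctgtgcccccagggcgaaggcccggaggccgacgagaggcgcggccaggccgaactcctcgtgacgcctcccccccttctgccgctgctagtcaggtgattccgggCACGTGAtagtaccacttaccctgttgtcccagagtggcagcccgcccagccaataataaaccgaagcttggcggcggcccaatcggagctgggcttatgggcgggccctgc
Fnip1, chr11:54437929-54438178, plus strand: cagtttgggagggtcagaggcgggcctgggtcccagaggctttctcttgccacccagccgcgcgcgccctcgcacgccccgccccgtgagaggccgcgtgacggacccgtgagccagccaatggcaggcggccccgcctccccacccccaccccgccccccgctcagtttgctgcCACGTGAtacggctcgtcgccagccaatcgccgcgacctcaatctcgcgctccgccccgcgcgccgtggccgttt

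Lamp1, the gene of an abundant lysosomal membrane glycoprotein, had 4 copies within 61 bases of its start. Mcoln1, which encodes the lysosomal calcium channel, had copies beginning 71 and 45 bases before its start. Ctsd, the gene of the aspartic protease cathepsin D, had copies at 245 and 98 bases before it. Gla, the gene of alpha-galactosidase A, had copies at 227 and 194 bases. The windows of Rragd, Lamp2, Gabarapl1, Flcn and Ulk1, which are described below for the size of their rise in culture, did not hold these letters. A match is a description of the letters and not evidence of binding.

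The libraries as a whole bear on the values below in a few ways. The deposited values are log2 levels without read counts, so sequencing depth is unknown. Creld1 itself was lower in cKO cells by 0.49 (fresh), 1.0 (unstimulated) and 0.36 (stimulated) on the log2 scale with an SE of 0.23 each, and none of these passed the test over all genes (adjusted p = 0.790, 0.103 and 0.974). Of 10 listed early response genes 9 passed the filter. Of these, Egr1, Egr2 and Egr3 rose with stimulation in both genotypes, by 1.14 to 1.46 in control and 1.38 to 1.97 in cKO cells. Il2ra and Irf4 passed in control cells (1.20 and 1.10) but not in cKO cells (1.09 and 1.02). Cd69, Nr4a1, Myc and Tnfrsf9 passed in neither genotype. Cd4 was high, at 12.45 to 13.44 over the libraries. Of 20 myeloid and dendritic markers 15 were in the deposited table and 6 passed the filter. Their summed linear level lay between 228 and 309 in every library of every group. Csf1r and Adgre1, which were not among the 6 that passed, stayed at or below 0.27, and their values do not speak for those 6. These markers bear on the lysosomal genes because myeloid cells are rich in them, and the part of such cells in the values below was not tested. The libraries also differed in how their values fell with the GC content of the transcript. This GC slope, expressed as log2 units for each SD of GC content, averaged -0.26 ± 0.14 (SD, n = 3) in control and -0.37 ± 0.25 in cKO fresh cells, -0.11 ± 0.091 and -0.39 ± 0.061 in unstimulated culture, and -0.25 ± 0.13 and -0.17 ± 0.10 in stimulated culture. The third cKO fresh library stood apart with a slope of -0.096, against -0.45 and -0.57 in the other 2.

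In fresh control cells the members covered nearly the whole range of expression. Levels of different genes are compared here only after division by the exon length in the GENCODE M21 annotation, as log2 value per kb, with the percentile among all tested genes. The highest was Laptm5, a lysosomal membrane protein of blood cells that takes part in turnover of the T cell receptor, at 11.39 per kb (98.9th percentile). It was followed by the sphingolipid activator precursor gene Psap at 10.02 and the cholesterol carrier gene Npc2 at 9.80. Ctsd at 9.51 and Ctss, the gene of cathepsin S, at 9.49 came next. The autophagy genes Gabarap, at 9.43 (95.5th percentile), and Sqstm1, which encodes the cargo receptor p62, at 9.05 (93.4th percentile) were also high.

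At the other end, Tfeb stood at 3.20 per kb (12.9th percentile), Rragd at 3.27 and Gabarapl1 at 4.11. Tfe3, the paralog of Tfeb, stood at 5.90 per kb, above Tfeb by more than the spread between libraries. The 3 Rag genes were unequal: Rraga at 7.51 and Rragc at 7.39 lay within their spread of each other, while Rragd, whose product can take the place of that of Rragc in the heterodimer, was lower. Wipi1 was near the floor at 0.59 per kb, and its paralog Wipi2, which encodes the phosphoinositide reader that recruits the conjugation machinery, stood at 7.18. Cd63, a tetraspanin of late endosomes, was not expressed above the filter, with log2 values between 0.13 and 0.57 over all 18 libraries, and was not tested.

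**Figure D1:**
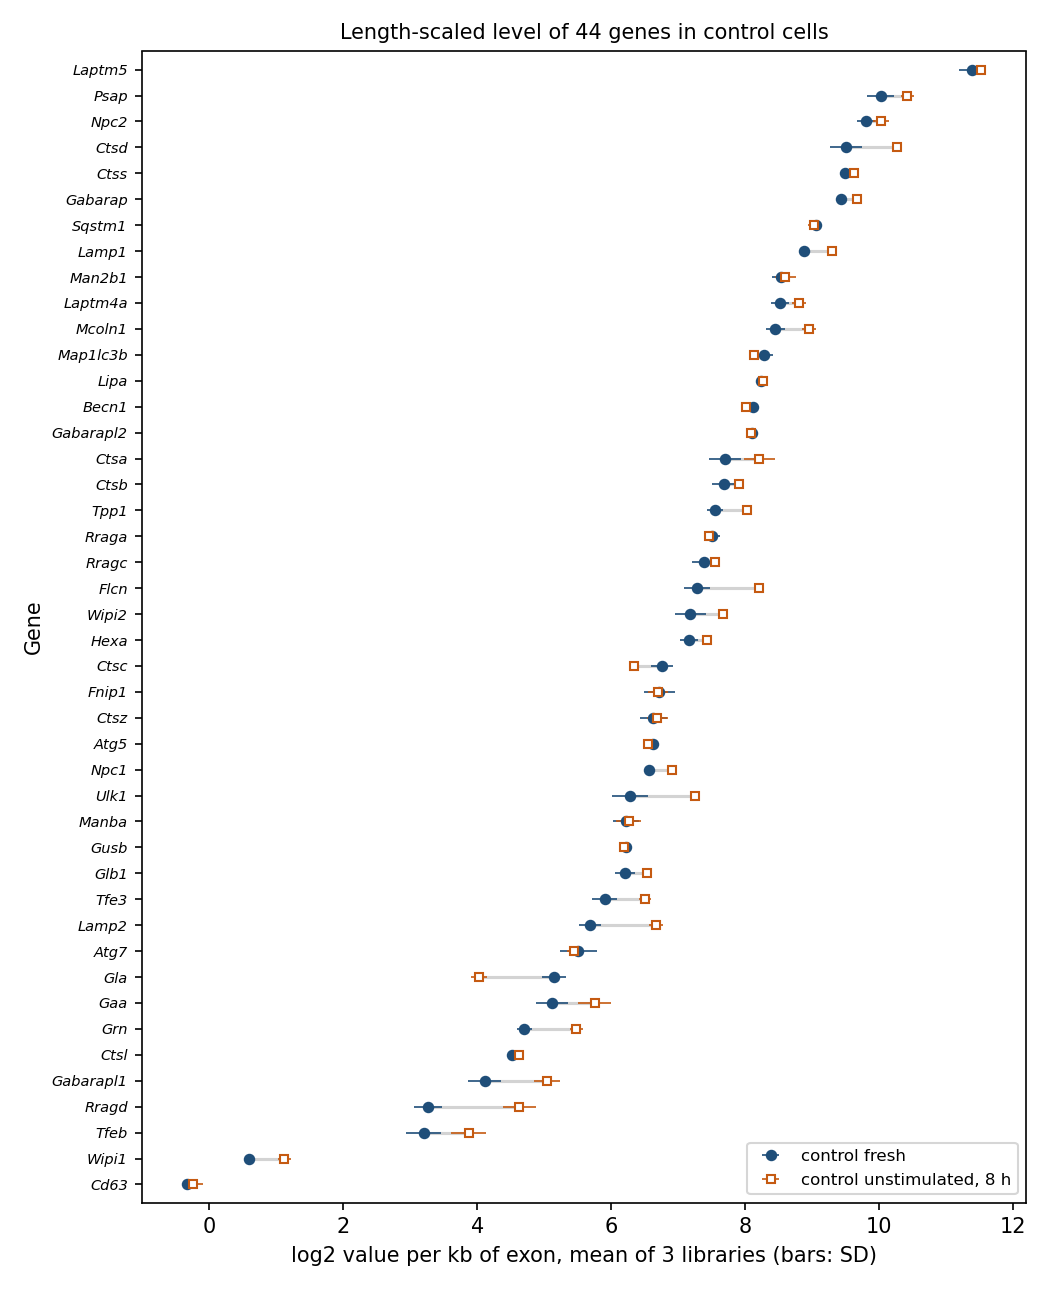
Mean log2 value per kb of exon for the 44 genes in control cells, fresh (filled circles) and after 8 h of unstimulated culture (open squares), with bars of 1 SD over 3 libraries, on a log2 axis. Laptm5 is highest at 11.39 in fresh cells, and the widest gaps between the symbols are at Rragd and Gla, in opposite directions.

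Culture without stimulation raised many of the members. Relative to fresh cells, 19 of the 43 tested members rose and 2 fell in control cells, a share of 48.8%, where 29.0% of all tested genes were called in this comparison (14.9% higher and 14.1% lower). In cKO cells 12 members rose and 1 fell, a share of 30.2%, where 22.1% of all genes were called (10.7% higher and 11.4% lower). The median difference over the members was 0.23 in control cells and 0.20 in cKO cells on the log2 scale, against 0.038 and -0.022 over all tested genes. All 12 members that rose in cKO cells were among the 19 that rose in control cells, a share of 63.2% of the control list. They were Lamp1, Lamp2, Npc1, Mcoln1, Grn, Tpp1, Tfe3, Flcn, Rragd, Gabarapl1, Wipi1 and Wipi2. Wipi1 reached the minimum of the filter in the 3 unstimulated cKO libraries and in no others, so it was tested because it is high there, and without it the counts were 18 higher in control and 11 in cKO cells. The other 7 of the control list were Ctsa, Ctsd, Hexa, Psap, Laptm4a, Gabarap and Ulk1. The libraries did not overlap for 26 higher and 3 lower members in control cells (48.6% of all genes did not overlap, 25.8% higher and 22.9% lower) and for 16 higher and 2 lower members in cKO cells (31.9%, 15.8% and 16.1%). In bulk RNA, a change in the makeup of the cells and a change in RNA per cell cannot be told apart.

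The cKO count depended on the fresh libraries and on the spread used. Without cKO fresh replicate 3 it was 24 of 43 (20 higher and 4 lower, where 30.6% of all genes were called), and with the 6 compared libraries fitted alone it was 3 (Lamp2, Rragd and Gla), where 7.70% of all genes were called. With the libraries' GC slopes added to the model, 25 members were called in control cells and 30 in cKO cells, where 42.9% and 45.3% of all genes were called. The control difference had a Pearson's r of 0.33 with GC content across the 43 members and 0.36 across all 10803 genes, in points that share 6 libraries. With the slopes, the control rises of Ulk1, Flcn and Ctsd were 0.64, 0.71 and 0.54, smaller than those given below. Those of Rragd and Lamp2 were 1.55 and 1.16, larger than those given below.

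**Figure D2:**
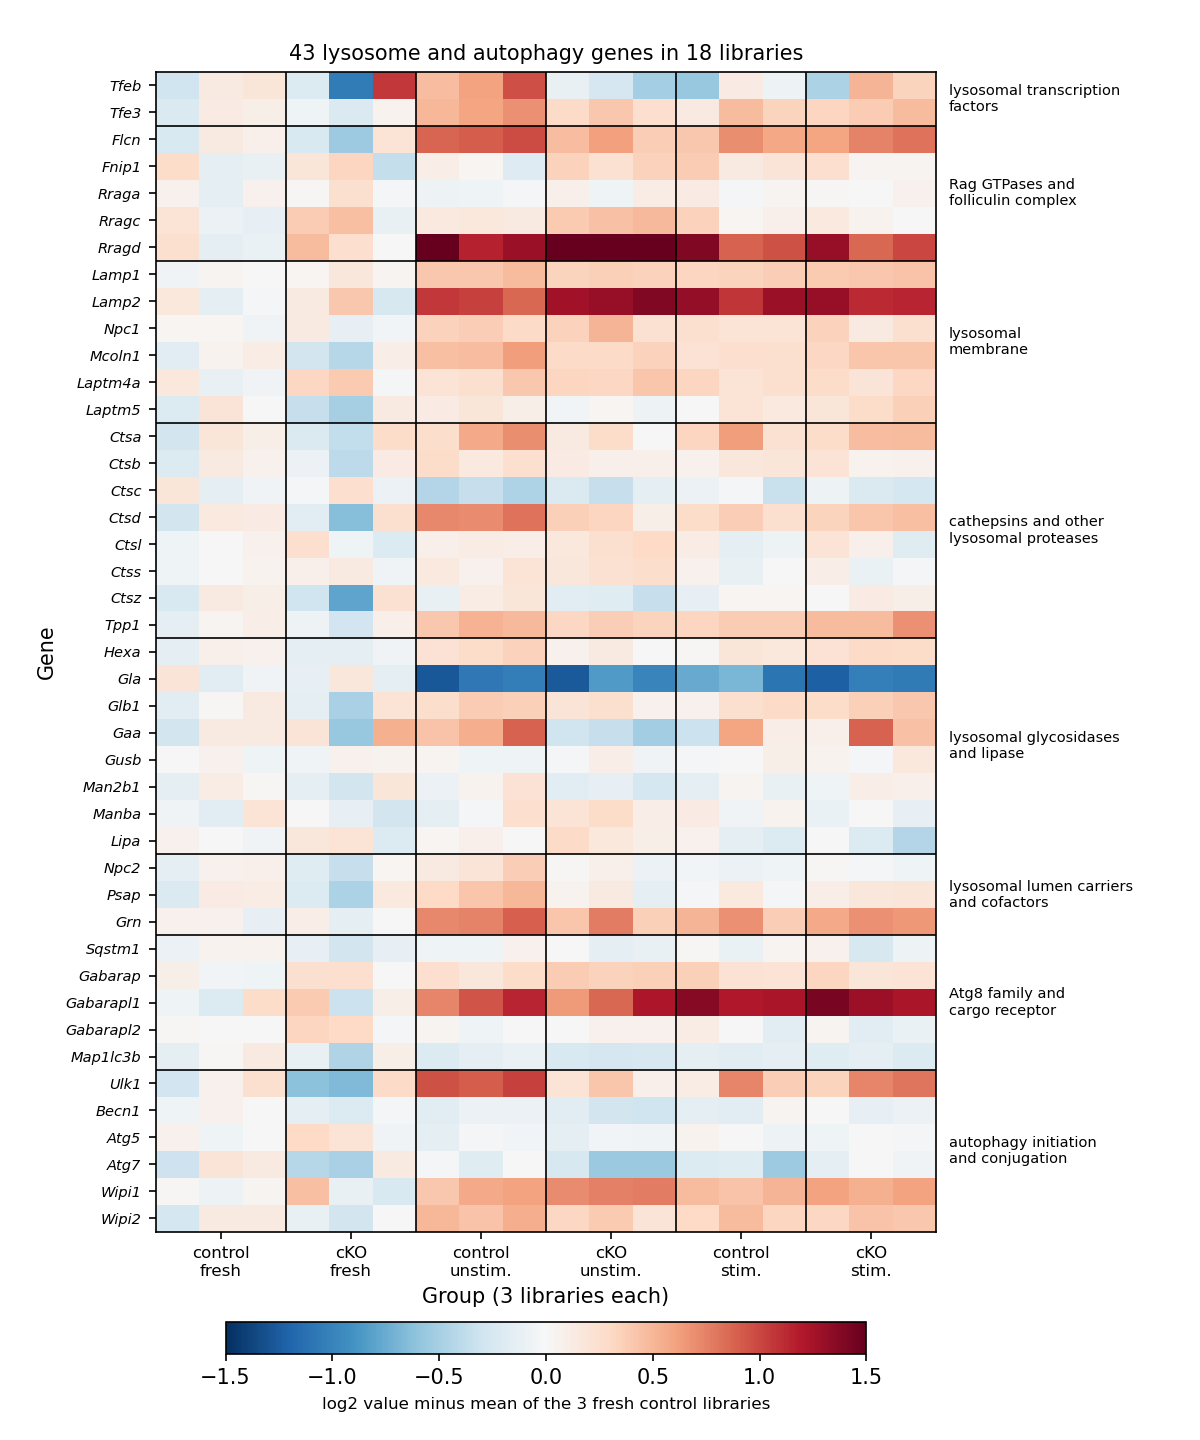
Log2 value of the 43 tested genes in each of the 18 libraries, minus the mean of the 3 fresh control libraries, with genes in rows grouped by role and the colour scale held at 1.5 above and below 0. Rragd, Lamp2 and Gabarapl1 are darker red in all 12 cultured libraries than in the 6 fresh ones, and Gla is blue in all 12.

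Among the transcription factors, Tfe3 rose and Tfeb did not pass. Tfe3 was at 7.54, 7.88 and 7.85 in the fresh control libraries and at 8.26, 8.35 and 8.45 after unstimulated culture, a rise of 0.60 ± 0.11 (log2, SE, adjusted p = 0.00112). The cKO libraries went from 7.70, 7.54 and 7.81 to 8.05, 8.17 and 8.01, a rise of 0.40 ± 0.11 (adjusted p = 0.0194). The cultured Tfe3 values lay above all fresh values of the same genotype. Tfeb was the most variable tested member, at 5.00, 4.15 and 6.26 in the cKO fresh libraries alone. Its difference was 0.67 ± 0.39 in control (adjusted p = 0.206) and -0.23 ± 0.39 in cKO cells (adjusted p = 0.742), and the latter became 0.34 without cKO fresh replicate 3.

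Of the Rag GTPases and the folliculin complex, Rragd and Flcn rose in both genotypes and the other 3 genes did not pass in either. Rragd read 5.88, 5.50 and 5.54 in fresh control cells and 7.27, 6.79 and 6.94 after unstimulated culture, 2.57-fold higher (1.36 ± 0.18 on the log2 scale, adjusted p = 6.92e-05). In cKO cells Rragd read 6.12, 5.89 and 5.64 fresh and 7.22, 7.59 and 7.55 cultured, 2.96-fold higher (1.56 ± 0.18, adjusted p = 2.14e-05). This was the largest rise of any member in both genotypes. The Rragd product pairs with that of Rraga in an active heterodimer, and Rragd is a known target of Tfeb and Tfe3.

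Flcn encodes folliculin, the GTPase-activating protein that switches the Rragc and Rragd products and so allows mTORC1 to act on Tfeb and Tfe3. It stood at 8.86, 9.23 and 9.17 in fresh and 9.96, 10.00 and 10.07 in cultured control cells, a rise of 0.92 ± 0.15 (adjusted p = 3.49e-04). Folliculin mRNA in cKO cells went from 8.86, 8.55 and 9.30 to 9.55, 9.71 and 9.46, a rise of 0.67 ± 0.15 (adjusted p = 0.00431). All cultured Flcn values exceeded the fresh ones of their genotype. Its partner gene Fnip1 did not pass, and Rraga and Rragc differed by -0.057 to 0.20 without passing.

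The lysosomal membrane genes were the role with the highest share of calls in control cells, 5 of 6 tested, where 29.0% of all genes were called (14.9% higher). The call of Laptm4a among them was marginal, as given below. Each role holds few genes, and roles were not tested against each other. Lamp2, which encodes a membrane glycoprotein with an isoform that imports proteins for chaperone-mediated autophagy, was at 8.18, 7.87 and 8.0 in fresh control cells and at 9.08, 9.04 and 8.88 after culture, 1.98-fold higher (0.98 ± 0.13, adjusted p = 6.92e-05). Lamp2 in cKO cells went from 8.16, 8.42 and 7.78 to 9.28, 9.33 and 9.41, 2.33-fold higher (1.22 ± 0.13, adjusted p = 9.92e-06). The lowest cultured value was well above the highest fresh value in both genotypes. Lamp1, the paralog at a far higher level per kb, rose by less: from 9.98, 10.07 and 10.03 to 10.44, 10.43 and 10.51 in control cells (0.43 ± 0.058, adjusted p = 6.40e-05). In cKO cells Lamp1 rose by 0.27 ± 0.058 (adjusted p = 0.00370).

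Mcoln1 rose by 0.51 ± 0.11 in both genotypes (adjusted p = 0.00262 and 0.00323). Npc1, which encodes the membrane protein that exports cholesterol from the lysosome, rose by 0.33 ± 0.085 and 0.36 ± 0.085 (adjusted p = 0.00906 and 0.00576). Laptm4a rose by 0.28 in control cells only just past the threshold (adjusted p = 0.0441), and its call held in 5 of the 18 fits that leave out 1 library. Laptm5, the member with the highest level, did not pass in either genotype (0.14 and 0.20).

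Among the 8 proteases, 3 rose and 1 fell in control cells, where 14.9% of all genes rose and 14.1% fell. Tpp1 was the only one to pass in cKO cells, where 22.1% of all genes were called. Ctsd went from 10.33, 10.75 and 10.72 to 11.32, 11.31 and 11.41 in control cells, a rise of 0.75 ± 0.16 (adjusted p = 0.00305). In cKO cells it read 10.43, 9.96 and 10.84 fresh and 10.96, 10.92 and 10.69 cultured, a difference of 0.45 ± 0.16 that did not pass (adjusted p = 0.0592), with the third fresh library inside the range of the cultured ones. Tpp1, the gene of tripeptidyl peptidase, rose by 0.47 and 0.43 ± 0.093 (adjusted p = 0.00154 and 0.00330). Ctsa, the gene of the carboxypeptidase that protects beta-galactosidase and neuraminidase, rose by 0.51 ± 0.17 in control cells (adjusted p = 0.0319). Ctsc, whose product activates granule serine proteases, was the protease gene that fell, by 0.41 (adjusted p = 0.0104), from 9.35, 9.04 and 9.12 to 8.73, 8.83 and 8.71 in control cells. Ctsb, Ctsl, Ctss and Ctsz did not pass in either genotype.

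Of the 8 glycosidase and lipase genes, Gla fell in both genotypes, against the direction of most members. It was at 7.01, 6.66 and 6.77 in fresh control cells and at 5.55, 5.75 and 5.78 after unstimulated culture, 2.18-fold lower (-1.12 ± 0.15, adjusted p = 5.57e-05). Gla in cKO cells went from 6.70, 6.99 and 6.67 to 5.56, 5.97 and 5.83, 2.00-fold lower (-1.0 ± 0.15, adjusted p = 1.76e-04). No cultured Gla value reached a fresh one. Hexa, the gene of a beta-hexosaminidase subunit, rose by 0.28 ± 0.081 in control cells (adjusted p = 0.0180). Glb1, Gaa, Gusb, Man2b1, Manba and Lipa did not pass in either genotype.

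The lumenal cofactors included Grn, the gene of progranulin, which is taken into lysosomes and cut into granulins. Grn was at 5.99, 5.98 and 5.80 fresh and at 6.64, 6.66 and 6.82 after culture in control cells, a rise of 0.78 ± 0.12 (adjusted p = 2.92e-04). In cKO cells it rose by 0.54 ± 0.12 (adjusted p = 0.00563). Psap rose in control cells by 0.40 ± 0.13 (adjusted p = 0.0318), and Npc2 did not pass in either genotype. With the GC slopes added the control rises of Psap and Ctsa were 0.22 and 0.28, both still called (adjusted p = 0.00346 and 0.00363).

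In the Atg8 family, whose products are coupled to lipid on the autophagosome membrane, Gabarapl1 rose while its relatives moved little. It read 4.91, 4.76 and 5.24 in fresh control cells and 5.70, 5.91 and 6.11 after unstimulated culture, 1.91-fold higher (0.94 ± 0.19, adjusted p = 0.00161). Gabarapl1 in cKO cells read 5.36, 4.65 and 5.06 fresh and 5.61, 5.83 and 6.18 cultured, 1.8-fold higher (0.85 ± 0.19, adjusted p = 0.00383). Gabarap rose in control cells by 0.23 ± 0.077 (adjusted p = 0.0316). Gabarapl2, Map1lc3b, the gene of the common autophagosome marker LC3B, and Sqstm1 did not pass in either genotype.

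Of the initiation and conjugation genes, Wipi2 rose in both genotypes. Wipi2 went from 9.29, 9.69 and 9.68 to 10.05, 9.98 and 10.09 in control cells (0.49 ± 0.11, adjusted p = 0.00302) and rose by 0.43 ± 0.11 in cKO cells (adjusted p = 0.00802). Wipi1, a low-level paralog, is described by its values because the filter let it through by its 3 unstimulated cKO libraries, at 3.40, 3.44 and 3.46. Its cKO fresh values were 3.14, 2.58 and 2.46, and its control values were 2.71, 2.61 and 2.73 fresh and 3.10, 3.26 and 3.29 cultured. Ulk1, the kinase that starts autophagy and is switched off by mTORC1, went from 8.38, 8.73 and 8.91 to 9.62, 9.58 and 9.70 in control cells, 1.95-fold higher (0.96 ± 0.22, adjusted p = 0.00490). In cKO cells Ulk1 read 8.06, 8.01 and 8.96 fresh and 8.88, 9.09 and 8.75 cultured, 0.56 ± 0.22 (adjusted p = 0.0845), with the third fresh library inside the range of the cultured ones. Becn1, Atg5 and Atg7 did not pass in either genotype.

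**Figure D3:**
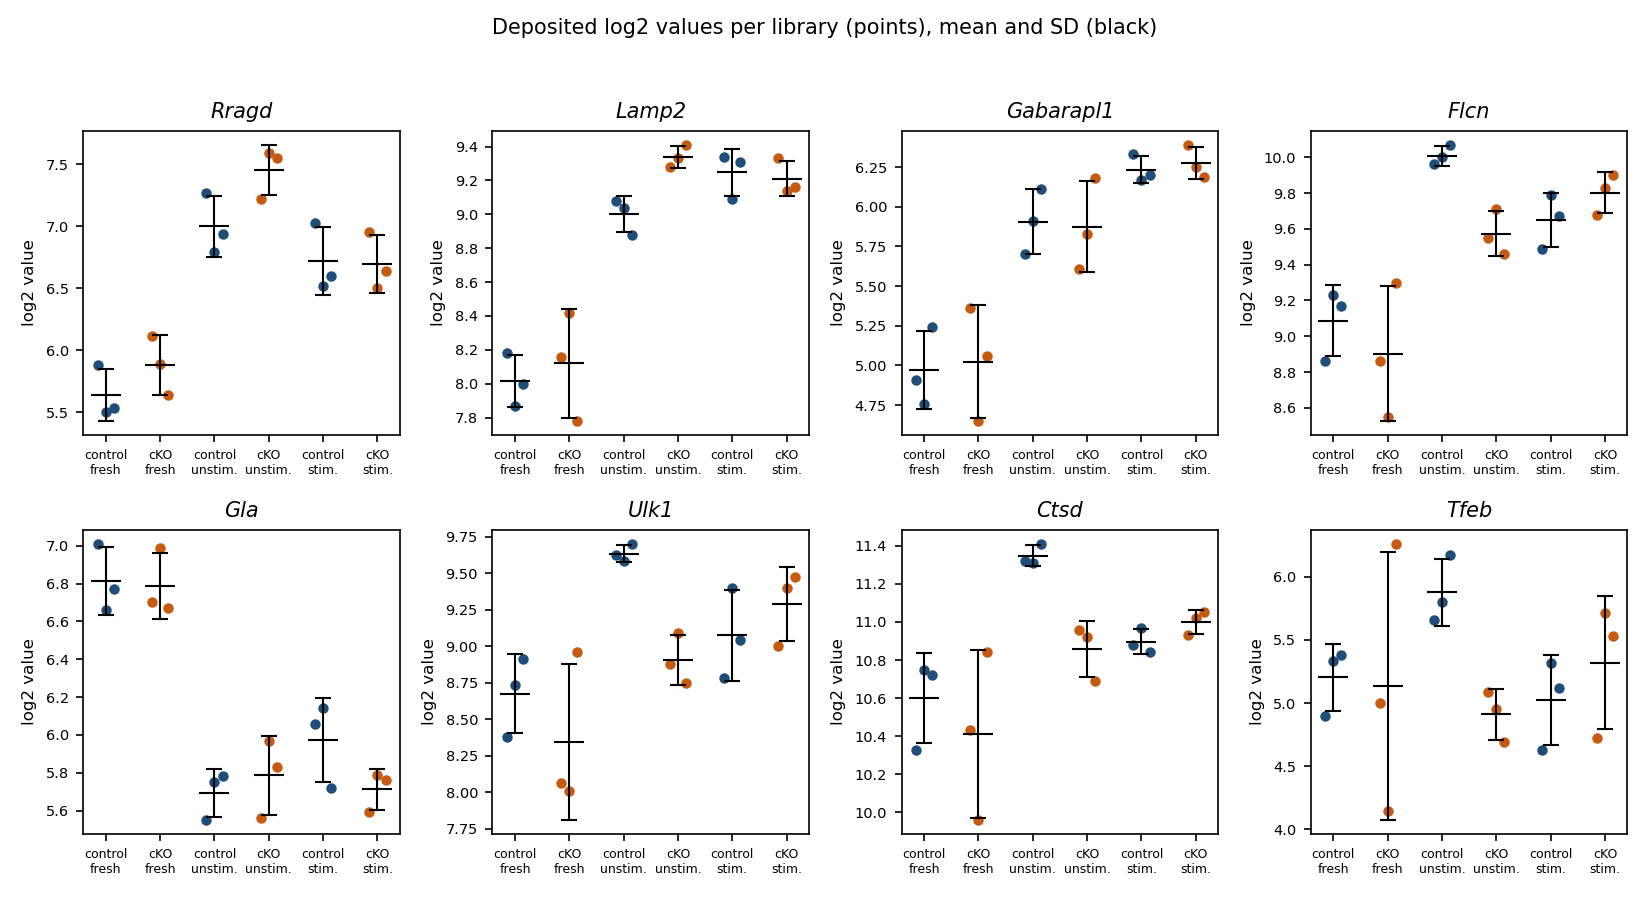
Deposited log2 value per library for 8 members, in control (blue) and cKO (orange) cells, with black bars at the mean and 1 SD of 3 libraries and a separate, truncated axis for each gene. Rragd, Lamp2, Gabarapl1 and Flcn are higher in all cultured than in all fresh libraries and Gla is lower, while Ulk1, Ctsd and Tfeb spread widely among the cKO fresh libraries.

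Members with and without the CACGTG core in their window are set side by side here without a test. Wipi1, which passed the filter only by its unstimulated cKO libraries, is among the 28 without it. It is counted as a rise in each comparison below, so those counts are not independent of the filter. In unstimulated control culture 4 of the 12 members with it rose and 1 fell, and 14 of the 28 tested members without it rose and 1 fell. The medians were 0.24 and 0.26, and 14.9% of all genes rose and 14.1% fell. In unstimulated cKO culture 2 of 12 and 9 of 28 rose, with medians of 0.24 and 0.18, where 10.7% of all genes rose. In stimulated culture, against fresh cells, 1 of 12 and 9 of 28 rose in control cells (medians 0.18 and 0.08), where 9.58% of all genes did. In stimulated cKO cells 5 of 12 and 12 of 28 rose (median 0.26 in both), where 14.5% of all genes did. In unstimulated control culture Lamp1, Mcoln1, Ctsa and Ctsd were the 4 that rose, Gla fell, and Rragc and Fnip1 differed by 0.15 and -0.02 without passing.

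Stimulated culture was compared with the same fresh libraries, so these values share the fresh controls with those above. In control cells 10 members rose and 1 fell (25.6%), where 18.8% of all genes were called (9.58% higher, 9.26% lower), and the median member differed by 0.13 against 0.0043 over all genes. In cKO cells 18 rose and 2 fell (46.5%), where 30.3% were called (14.5% higher, 15.7% lower), and the medians were 0.22 and 0.035. The genes that rose in both genotypes numbered 9, which is 90.0% of the control list and 50% of the cKO list: Lamp1, Lamp2, Grn, Tpp1, Flcn, Rragd, Gabarapl1, Wipi1 and Wipi2. Without Wipi1, which these libraries alone would not have brought past the filter, 8 were shared of 9 and 17. Gla fell in both. The cKO count was 13 without cKO fresh replicate 2, where 18% of all genes were called. It was 31 without cKO fresh replicate 3 (where 53.4% of all genes were called) and 8 with the 6 compared libraries alone. The control count was 21 with the GC slopes added, where 41.0% of all genes were called.

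Gabarapl1 stood at 6.33, 6.17 and 6.20 in stimulated control and at 6.39, 6.25 and 6.19 in stimulated cKO libraries, 2.40-fold and 2.38-fold above fresh cells (1.26 ± 0.19 and 1.25 ± 0.19, adjusted p = 1.93e-04 and 1.77e-04). Lamp2 stood at 9.34, 9.09 and 9.31 in stimulated control and 9.33, 9.14 and 9.16 in stimulated cKO libraries, 2.35-fold and 2.12-fold above fresh (adjusted p = 9.17e-06 and 2.90e-05). Rragd was 2.11-fold and 1.75-fold above fresh (adjusted p = 6.55e-04 and 0.00438). These 3 genes were thus higher in cultured cells whether or not the antibodies were present. Gla was 1.79-fold and 2.11-fold below fresh (adjusted p = 8.09e-04 and 9.05e-05), at 6.06, 6.14 and 5.72 in control and 5.59, 5.79 and 5.76 in cKO cells. Ulk1 rose in stimulated cKO cells by 0.95 ± 0.22 (adjusted p = 0.00557), and its difference in control cells was 0.40 ± 0.22 (adjusted p = 0.239). In cKO cells Laptm5, Glb1, Ctsa, Ctsd, Hexa, Npc1, Mcoln1 and Tfe3 rose as well, by 0.25 to 0.59, and Gabarapl2 fell by 0.27 (adjusted p = 0.0431). Across the 43 members the stimulated cKO difference had a Pearson's r of 0.35 with GC content, and 0.46 across all 10803 genes, in points that share 6 libraries. With the GC slopes added 22 members were called in cKO cells, where 35.2% of all genes were. Ulk1 then rose by 0.52, Ctsd by 0.32, Tfe3 by 0.30, Laptm5 by 0.28, Glb1 by 0.26 and Ctsa by 0.20, all still called, and Gabarapl2 stood at -0.15 (adjusted p = 0.127). The fall of Gabarapl2 passed in 5 of the 18 fits that leave out 1 library. The libraries did not overlap for 16 higher and 1 lower member in each genotype, where 34.2% of all genes in control (17.3% higher, 16.9% lower) and 32.7% in cKO cells (15.7% higher, 16.9% lower) did not.

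**Figure D4:**
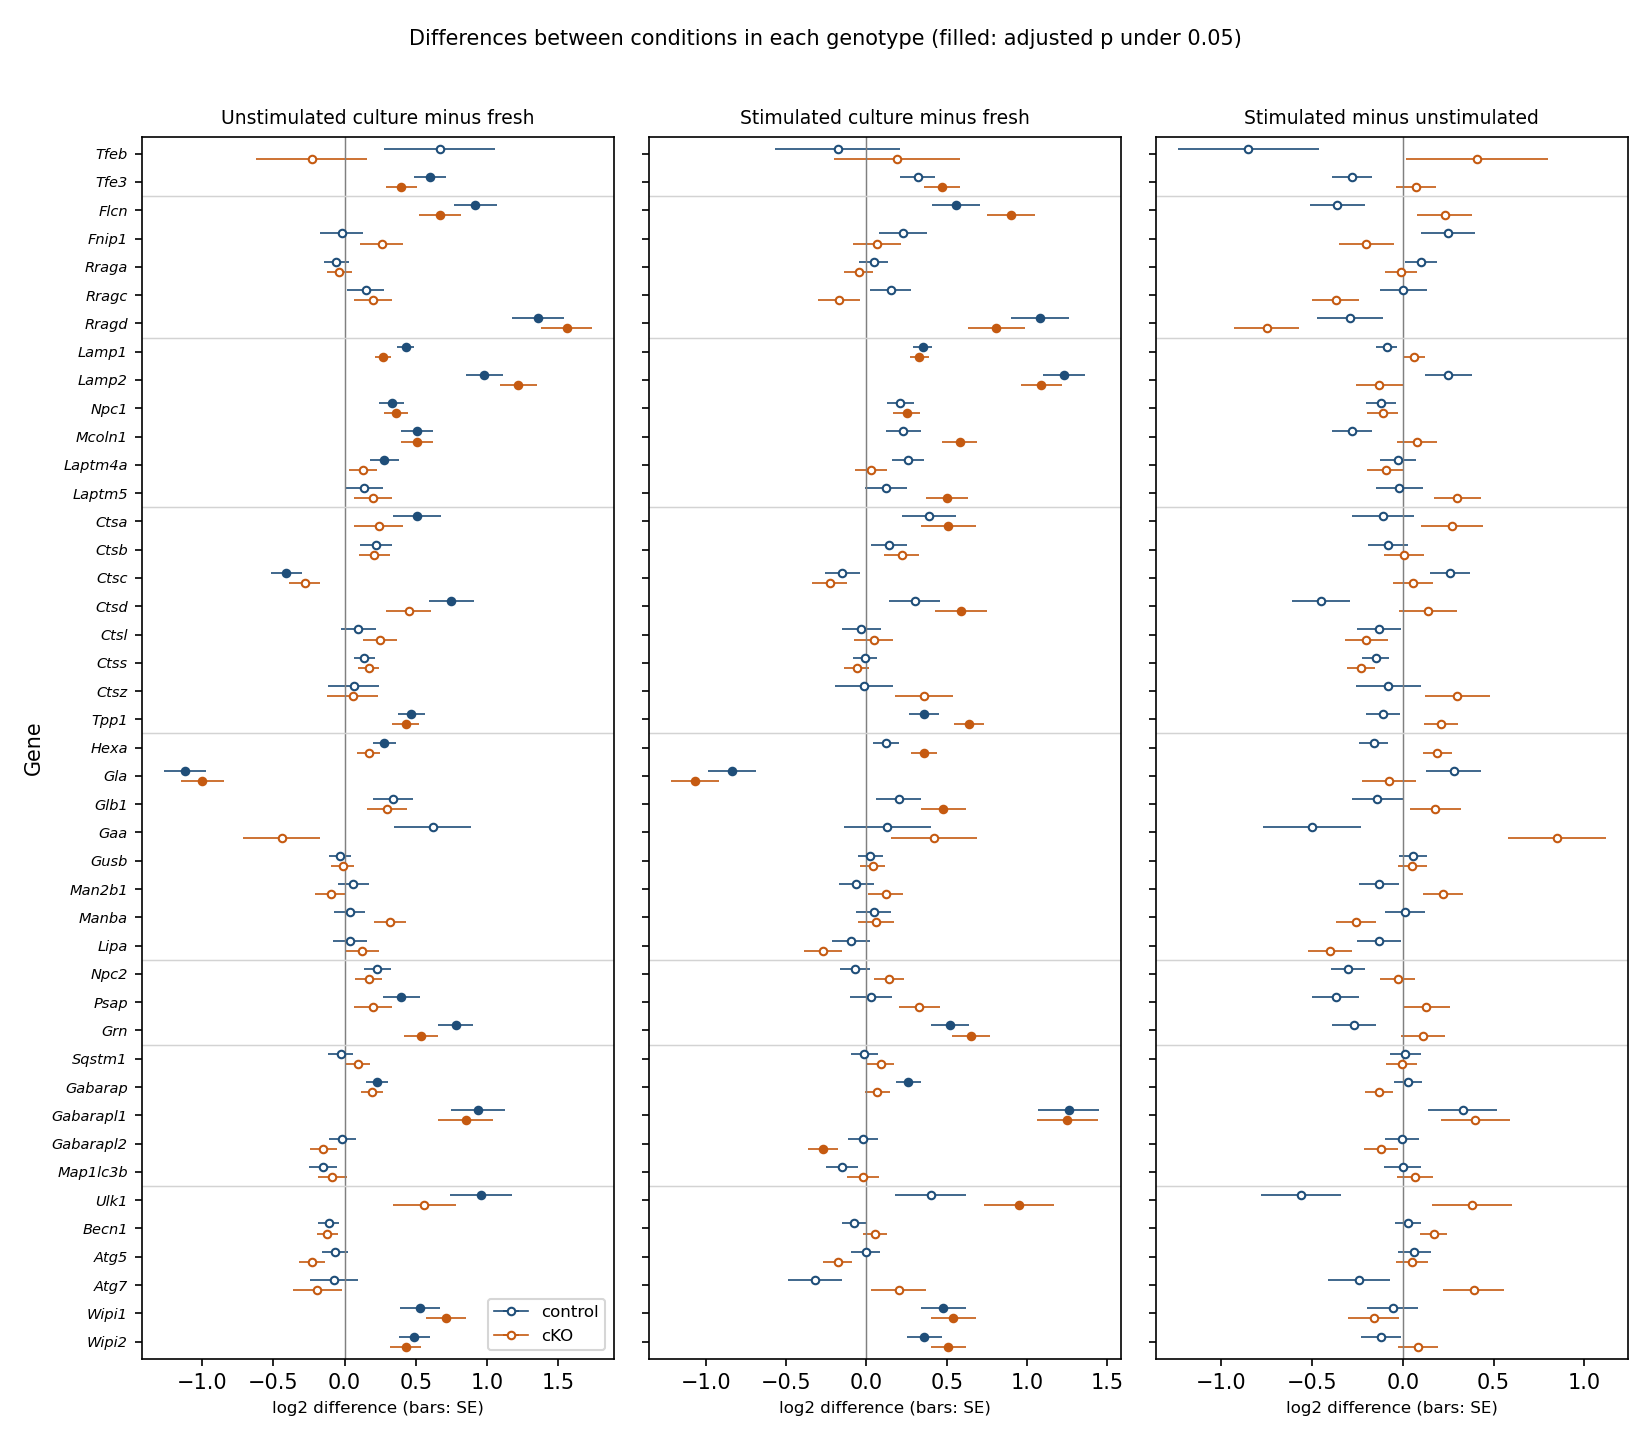
Log2 difference of each of the 43 tested genes in control (blue) and cKO (orange) cells for unstimulated culture against fresh cells, stimulated culture against fresh cells, and stimulated against unstimulated culture, with bars of 1 SE and filled symbols where the adjusted p is under 0.05. The filled symbols lie in the first and second panels, and no symbol is filled in the third.

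Antibody stimulation itself, stimulated against unstimulated culture, called none of the 43 members in either genotype by limma, where 0.349% of all genes were called in control (0.313% higher, 0.0368% lower) and 0.285% in cKO cells (0.276% higher, 0.00919% lower). At an unadjusted p under 0.05 the counts were 10 and 12 of 43, where 11.3% and 23.1% of all genes reached it. The 95% interval of the difference lay within 1 log2 unit of 0 for 40 of 43 members in each genotype, and within 0.5 units for 26 in control and 29 in cKO cells. In simulated data for this comparison in control cells, 34% of changes of 0.5 and 84% of changes of 1 were recovered. The simulated noise was independent between genes, whereas the real libraries share deviations such as the GC slope, so recovery in the real data may differ.

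The smallest adjusted p in control cells was for Npc2, at 0.233, with a difference of -0.30 ± 0.094. Psap, Ctsd and Mcoln1 followed, at -0.37 ± 0.13, -0.45 ± 0.16 and -0.28 ± 0.11 (adjusted p = 0.299, 0.314 and 0.353), each lower in all 3 stimulated libraries than in any unstimulated one. In cKO cells the smallest was for Rragd at 0.113, with a difference of -0.75 ± 0.18. Rragd read 7.22, 7.59 and 7.55 in unstimulated and 6.95, 6.50 and 6.64 in stimulated cKO libraries, which do not overlap, and -0.29 separated the control means. After adding the GC slopes the cKO difference was -0.49 (adjusted p = 0.156). Without cKO fresh replicate 3, which changes the estimate of spread alone, 3 members passed in cKO cells, all of them lower, where 3.09% of all genes did. With the 6 compared libraries fitted alone, 8 members passed in cKO cells, 4 in each direction, where 22.5% of all genes did.

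The 2 genotypes moved in opposite directions under stimulation for several members, without passing a test of the difference. Lamp1, Hexa, Tpp1 and Atg7 were lower in every stimulated control library than in every unstimulated one, and higher in every stimulated cKO library. The share of all genes with such joint patterns over both genotypes was not counted, so they are not read as particular to the members. Over all 43 members the libraries did not overlap for 4 higher and 14 lower in control cells (20.5% of all genes did not overlap, 10.2% higher and 10.3% lower) and for 13 higher and 8 lower in cKO cells (42.3%, 23.9% and 18.4%). Gabarapl1 was the only member higher in all stimulated libraries of both genotypes, by 0.33 ± 0.19 and 0.40 ± 0.19 (adjusted p = 0.487 and 0.213). The interaction of stimulation and genotype called 0 of 43 members by limma, where 0.00919% of all genes were called. At an unadjusted p under 0.05 there were 13 of 43 members and 28.0% of all genes. The smallest adjusted p of the interaction was 0.166, for Gaa at 1.35 ± 0.38, Ulk1 at 0.94 ± 0.32, Flcn at 0.59 ± 0.21 and Hexa at 0.35 ± 0.11. Across the 43 members this interaction followed GC content with a Pearson's r of 0.81 (Spearman's 0.82), and across all 10803 genes with GC content r was 0.75. These points share their 12 libraries, and the part of base composition in the interaction was not tested beyond the values that follow. After adding the GC slopes the values were 0.50 for Gaa, 0.19 for Ulk1, 0.089 for Flcn and 0.19 for Hexa. The count was 9, all higher, without cKO fresh replicate 3 (15.3% of all genes) and 14 with the 4 cultured groups fitted alone (22.1% of all genes).

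The comparison of Creld1 cKO with control cells in unstimulated culture called 0 of 43 members by limma, where 0% of all genes were called. At an unadjusted p under 0.05 there were 17 of 43 members and 33.2% of all genes. The members of smallest p were Gaa, the gene of acid alpha-glucosidase that degrades lysosomal glycogen, Ulk1, Ctsd and Psap, all lower in cKO cells. Gaa was at 7.58, 7.70 and 8.04 in control and 6.85, 6.81 and 6.63 in cKO libraries, a difference of -1.01 ± 0.27 (adjusted p = 0.103). Ulk1 differed by -0.73 ± 0.22, Ctsd by -0.49 ± 0.16 and Psap by -0.39 ± 0.13, each with an adjusted p of 0.103. The libraries of the 2 genotypes did not overlap for these 4 genes. Over all 43 members they did not overlap for 28, of which 8 were higher and 20 lower in cKO cells, where 52.1% of all genes did not overlap (23.5% higher, 28.6% lower).

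The size and sign of this difference moved with GC content. The tested members ranged from 38.7% GC (Lamp2) to 63.2% (Tfeb), with a median of 51.7% against 49.7% over all genes. Across the 43 members the genotype difference in unstimulated culture had a Pearson's r of -0.80 with GC content (Spearman's -0.82), and across 10803 genes r was -0.74, in points that share 6 libraries. These libraries also differed in the share of the summed level from mitochondrially encoded genes, 3.27% ± 0.328 in control and 4.19% ± 0.216 in cKO cells (SD, n = 3), whose part in the result was not tested. Members of low GC content such as Lamp2 (0.34 ± 0.13) and Rragd (0.45 ± 0.18) were higher in cKO cells, and members of high GC content such as Tfeb (-0.97 ± 0.39) were lower. With the libraries' GC slopes added to the model Gaa differed by -0.36, Ulk1 by -0.15, Ctsd by -0.11 and Psap by -0.065, and 0 members and 0 of all genes passed. In these 6 libraries the slopes ran from -0.19 to -0.013 in control and from -0.45 to -0.33 in cKO cells, without overlap. A difference by genotype and a difference by GC slope therefore cannot be told apart in this comparison. Fitted on these 6 libraries alone 15 members passed (4 higher and 11 lower), where 35.3% of all genes did. When the run of library numbers entered the model as a block, 2 passed, both lower, where 8.15% did. Without cKO fresh replicate 3, 10 passed (3 higher and 7 lower), where 26.1% did.

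**Figure D5:**
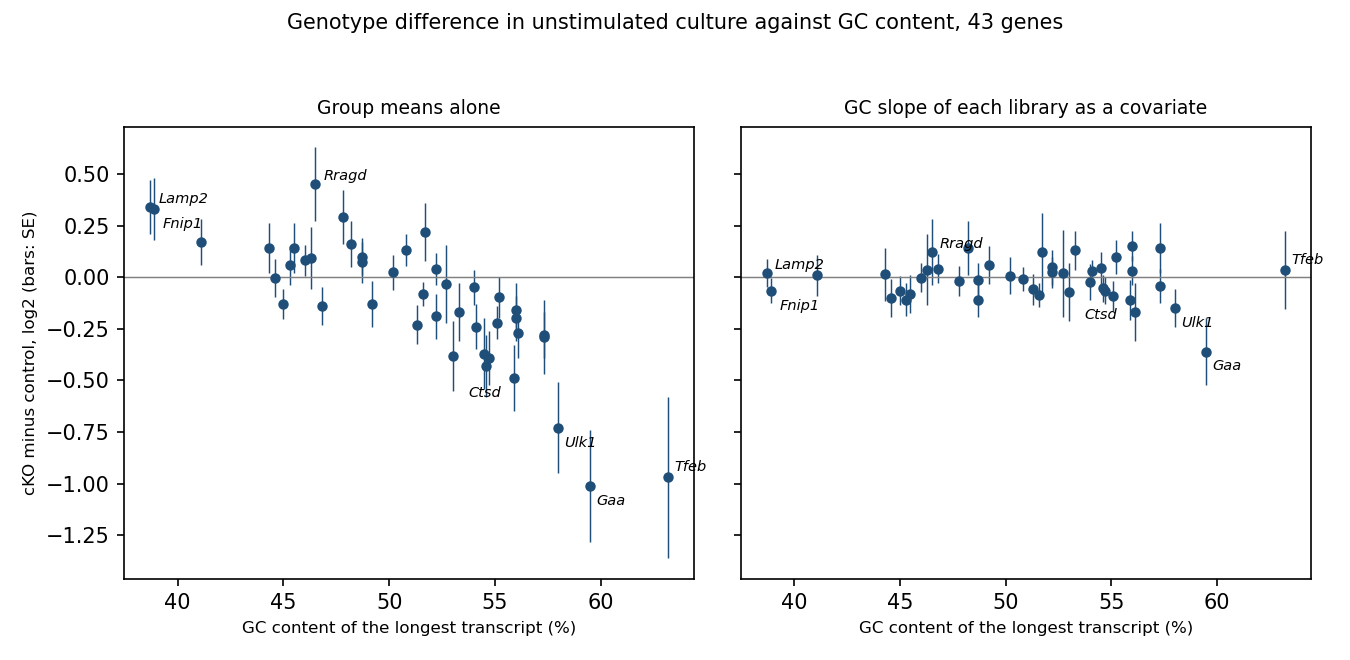
Difference between cKO and control cells in unstimulated culture (log2, bars of 1 SE) against the GC content of each gene's longest transcript for the 43 tested genes, from the group means alone (left) and with the libraries' GC slopes added to the model (right). On the left the points fall from Lamp2 and Fnip1 at low GC content to Gaa and Tfeb at high GC content, and on the right they lie closer to 0, with Gaa at -0.36.

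In fresh cells the genotypes called 0 of 43 members by limma (2, and 3.94% of all genes, at an unadjusted p under 0.05), where 0.00919% of all genes were called. The members of smallest p were Laptm4a (0.23 ± 0.10), Gabarap (0.17 ± 0.077), Sqstm1 (-0.17 ± 0.085) and Gabarapl2 (0.19 ± 0.095), with an adjusted p of 0.790 each. The fresh libraries did not overlap for 1 member, Sqstm1, which was lower, where 4.31% of all genes did not (2.45% higher, 1.86% lower). Without cKO fresh replicate 3, 8 members passed, 4 in each direction, where 11% of all genes did. In stimulated culture 0 of 43 passed by limma and 0 reached an unadjusted p under 0.05, which 1.47% of all genes did, where 0% of all genes were called. Tpp1 (0.18 ± 0.093), Gla (-0.26 ± 0.15), Hexa (0.13 ± 0.081) and Atg7 (0.25 ± 0.17) had the smallest p there (adjusted p = 0.974 each). The libraries did not overlap for 6 members, all higher in cKO cells, where 6.19% of all genes did not (3.05% higher, 3.14% lower). The 95% interval of the genotype difference in stimulated culture lay within 0.5 log2 units of 0 for 38 of 43 members.

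Averaged over the 3 conditions the genotype difference called 0 of 43 members by limma (3, and 8.28% of all genes, at an unadjusted p under 0.05), where 0.0184% of all genes were called. Npc2 (-0.12), Ulk1 (-0.28), Rragd (0.23) and Ctsd (-0.19) had the smallest p (adjusted p = 0.463 each), and 8 members passed without cKO fresh replicate 3, where 14.9% of all genes did. The interaction of unstimulated culture and genotype called 0 of 43 members by limma (1, and 5.01% of all genes, at an unadjusted p under 0.05), where 0% of all genes were called. Its smallest adjusted p was 0.843, for Gaa (-1.06 ± 0.38), Lamp1 (-0.17 ± 0.082), Manba (0.29 ± 0.16) and Tfeb (-0.90 ± 0.55). The 7 members that rose in control and did not pass in cKO cells were therefore not shown to respond differently.

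Genes of the same pathways outside the list of 44 gave these counts in unstimulated culture, where 29.0% of all genes were called in control (14.9% higher, 14.1% lower) and 22.1% in cKO cells (10.7% higher, 11.4% lower). Of 37 tested other lysosomal hydrolases and cofactors, 14 rose and 1 fell in each genotype (40.5%), with medians of 0.29 and 0.24. In control cells Sgsh, the gene of a heparan sulfatase, rose by 1.04 ± 0.21 (adjusted p = 0.00185). In cKO cells the fucosidase gene Fuca1 rose by 0.65 ± 0.10 and the protease gene Ctsf by 0.64 ± 0.17. Ctsw, a protease gene of cytotoxic cells, fell by 0.84 and 0.55.

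Of the 19 subunit genes of the vacuolar ATPase, the pump that acidifies the lysosome, 5 rose and 3 fell in control cells (42.1%) and 1 rose and 2 fell in cKO cells (15.8%). Atp6v1d rose in both, by 0.69 ± 0.086 and 0.65 ± 0.086 (adjusted p = 3.42e-05 and 7.07e-05), and Atp6v1h fell in both, by 0.37 and 0.31. The subunits of this pump thus did not move as a block. Of 43 other lysosomal membrane and trafficking genes, 9 rose and 5 fell in control cells (32.6%) and 6 rose and 1 fell in cKO cells (16.3%). The calcium channel gene Mcoln3 fell by 1.12 ± 0.19 and 1.14 ± 0.19 (adjusted p = 5.07e-04 and 4.91e-04), opposite in direction to its paralog Mcoln1. Laptm4b rose by 0.69 ± 0.18 and 0.72 ± 0.18.

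Of 41 other mTORC1 and nutrient-sensing genes, 7 rose and 1 fell in control cells (19.5%) and 6 rose and 0 fell in cKO cells (14.6%). Rhebl1, a paralog of the mTORC1 activator Rheb, rose by 0.60 ± 0.098 and 0.54 ± 0.098. Of 34 other core autophagy genes, 8 rose and 4 fell in control cells (35.3%) and 3 rose and 5 fell in cKO cells (23.5%). Atg3, the enzyme gene that couples Atg8 proteins to lipid, fell by 0.74 ± 0.13 and 0.69 ± 0.13 (adjusted p = 4.79e-04 and 0.00101), while Gabarapl1, which encodes one of its substrates, rose.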

How the data were processed

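Values were taken from the table the authors deposited, 1 row per gene symbol and 1 column per library. They are normalized levels on a log scale that was read as log2 from their range (-1.36 to 17.2), since no header states the scale, and they are not counts. Per the submitters' processing notes, HISAT2 2.1.0, SAMtools 1.4, CASAVA 1.8, Partek 6.6 and DESeq2 were used with build mm10. What each tool did is not stated there, and depth per library is unknown. Per the labels, libraries were made from 10 ng of RNA and read as 75 bp single ends. All 18 libraries were fitted in 1 limma model (version 3.58.1, R 4.3.3) of 6 group means with trended variance, and p-values were adjusted by Benjamini-Hochberg over 10877 genes, with a threshold of 0.05. On simulated data for stimulation in control cells over 10877 genes, with noise independent between genes, 34% of changes of 0.5 and 84% of changes of 1 (log2) were recovered. Gene lengths, positions and GC content came from GENCODE M21 (GRCm38), and promoters from RefSeq. All members could be named. Of the other pathway lists, the 2 largest rises and 2 largest falls past the threshold in each comparison could be named, and in the genotype comparisons the 4 members of smallest p. Members, lists and rules were chosen with earlier results of these data known. Summed levels of the B cell, CD8 T and NK cell, and red cell and platelet markers lay between 34.0 and 55.3, 409 and 505, and 30.4 and 54.0 per library. Some items of the deposited data are not reported here.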

Additional observations from a re-analysis of the deposited data

How the results depend on the processing

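The counts of members past the threshold were recomputed with no filter on low values, a minimum of 50, a pseudocount of 5, quantile normalization, the compared groups alone, a block for runs of library numbers, the GC slope as a covariate, and block and slope together. Deviations from the group means had a median r of 0.13 (-0.68 to 0.69) between libraries of the same run of numbers. Between libraries of other runs the median r was -0.067 (-0.83 to 0.80). Of 18 libraries, 10 correlated best with a library of their own run. Whether the libraries of a run are paired was not tested. With that replicate block, 2 members passed for cKO against control in unstimulated culture (8.15% of all genes) and 2 for stimulation in cKO cells (1.41%). With the compared groups alone the count was 15 for cKO against control in unstimulated culture (35.3% of all genes). It was 8 for stimulation in cKO cells (22.5%) and 14 for the stimulation interaction (22.1%). Against fresh cells, unstimulated and stimulated culture of cKO cells gave 3 (7.70%) and 8 (7.03%). With the GC slope, 30 passed for unstimulated culture in cKO cells (45.3% of all genes) and 21 for stimulated culture in control cells (41.0%). With block and slope together these counts were 30 (46.0%) and 23 (41.5%). The cause of these changes was not tested. Tfeb in unstimulated cKO culture against fresh ranged from -0.72 to 0.34 when 1 library was left out, 0.34 being without cKO fresh replicate 3, and Ctsd turned for cKO against control in unstimulated culture to 0.014 with block and slope together.

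Leaving out each library in turn gave counts of 0 to 8 for cKO against control in fresh cells and for the mean of conditions, 0 to 10 in unstimulated and 0 to 0 in stimulated culture. The shares over all genes beside the highest genotype counts are given above, up to 26.1% in unstimulated culture. For unstimulated culture against fresh, leaving out each library gave 16 to 24 in control and 11 to 24 in cKO cells. The shares over all genes ran from 19.3% to 38% and from 16% to 30.6%. For stimulated culture against fresh the counts were 8 to 15 and 13 to 31. There the shares ran from 13.4% to 24.7% and from 18% to 53.4%. Stimulation gave 0 to 0 in control and 0 to 3 in cKO cells, its interaction 0 to 9, and the culture interaction 0 to 0. Here the highest shares over all genes were 1.14%, 3.09%, 15.3% and 0%. The upper values 3, 8, 9, 10, 31 and, in cKO cells, 24 all came without cKO fresh replicate 3, and the 13 without cKO fresh replicate 2. Over all genes, the count for cKO against control in unstimulated culture was 0, or 3762 with these 6 libraries alone and 887 with the block. Without read counts no depth limit could be set.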

Other observations

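The autophagy receptor genes, which link cargo to Atg8 proteins, were set beside the members as a further list. Of 14 tested, 5 rose and 2 fell after unstimulated culture in control cells (50%, against 29.0% of all genes) and 2 rose and 2 fell in cKO cells (28.6%, against 22.1%). Calcoco1, a receptor gene for the endoplasmic reticulum and Golgi, rose by 1.05 ± 0.15 and 0.58 ± 0.15 (adjusted p = 1.36e-04 and 0.0127). Tex264, a receptor gene for the endoplasmic reticulum, rose by 0.92 ± 0.24 in control cells (adjusted p = 0.0104). Ncoa4, the ferritin receptor gene, fell by 0.31 and 0.30, and Tollip fell by 0.28 and 0.21. Sqstm1, the cargo receptor among the 44 members, did not pass in either genotype.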
